A study of Rattus norvegicus with 63 samples.

Results

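rno-miR-221 and rno-miR-222 are a pair of rat microRNAs (miRNAs, short RNAs that bind to messenger RNAs and lower their translation) known as regulators of the cell cycle inhibitor p27. They were picked by name, and these 2 miRNAs are described here out of 350 rat miRNAs on the array, of which 162 were detected on at least 1 array. The array names give no arm and the probe sequences were not used here, so both names were taken to mean the arm that the unstarred name usually stands for, now called 3p. No other entry for either hairpin is among the array's names. miRNA levels were measured in the livers of male Wistar Hanover rats, 8 to 10 weeks old at the start, that received a compound or its vehicle by gastric gavage. One array was hybridized per rat, with 3 rats in each of 21 groups and 63 arrays in all, and the treated rats had been chosen by their liver histopathology.

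The groups fall into 4 classes of compounds. The nongenotoxic hepatocarcinogens (NGC) were phenobarbital sodium (PB) for 14 days at a dose that the labels leave out, piperonylbutoxide (PBO) at 1200 mg/kg/d for 3 days, dehydroepiandrosterone (DHEA) at 600 mg/kg/d for 14 days, acetamide (AA) at 3000 mg/kg/d for 14 days, methapyrilene HCl (MPy) at 60 mg/kg/d for 7 days, methylcarbamate (Mcarb) at 400 mg/kg/d for 14 days, diethylstilbestrol (DES) at 10 mg/kg/d for 3 days and ethionine (ETH) at 200 mg/kg/d for 14 days. The genotoxic carcinogens (GC) were C.I Direct Black (CIDB) at 146 mg/kg/d and dimethylnitrosamine (DMN) at 4 mg/kg/d, both for 7 days. The non-hepatocarcinogens (NC) were cefuroxime (CFX) at 250 mg/kg/d and nifedipine (Nif) at 3 mg/kg/d, both for 14 days. The class of cyproterone acetate (CPA) at 100 mg/kg/d for 14 days, thioacetamide (TAA, spelled Thioacetamid in the labels) at 19.2 mg/kg/d for 7 days and Wy-14643 (Wy) at 60 mg/kg/d for 3 days was undefined. Vehicle rats received methylcellulose (MC sets 1, 2, 5 and 6, all for 14 days) or corn oil (CO set 3 for 7 days, CO set 4 for 14 days). DHEA, AA, MPy, Mcarb, TAA and Wy were compared with MC1, CFX and Nif with MC2, DES, ETH and PBO with MC5, PB with MC6, CIDB and DMN with CO3, and CPA with CO4, as the labels assign them. Compounds that share a control set share its rats, and for DES, PBO, MPy, TAA and Wy the dosing time differs from that of the control rats and cannot be told apart from the compound.

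miRNA genes of one family often share the seed, the bases near the 5′ end that pair with target messenger RNAs. miR-221 and miR-222 are made from neighbouring hairpins and share their seed, and both are known to bind the messenger RNA of Cdkn1b, which encodes p27, and that of Cdkn1c, which encodes p57. p27 and p57 hold back cyclin-dependent kinases, so the pair is described as favouring entry into the cell cycle, and it is often raised in liver tumors. In healthy liver both are also known from endothelial cells, and miR-122 is the most abundant miRNA of hepatocytes. In bulk liver, fewer cells of a type and less RNA per cell cannot be told apart.

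The mature 3p sequences are shown because, if that reading of the names holds, they are what the probes have to distinguish. They are the RefSeq entries for the rat build GRCr8, 5′ to 3′, with the seed (bases 2 to 8) in capitals.
rno-miR-221-3p: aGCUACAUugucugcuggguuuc
rno-miR-222-3p: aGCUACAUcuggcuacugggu
miR-221-3p has 23 bases and miR-222-3p has 21, and the first 8 bases are the same in both. Over the 21 positions that can be set side by side without gaps, 11 hold the same base. No other mature rat miRNA among the 724 in the RefSeq table had this seed, so 2 of 724 carry it. On chromosome X, plus strand, the Mir222 hairpin lies at chrX:6022621-6022723 and its 3p arm at chrX:6022682-6022702. The Mir221 hairpin follows at chrX:6023182-6023290, with its 3p arm at chrX:6023246-6023268. The gap between both hairpins is 458 bases.

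The 63 arrays came from 9 slides, with scans on 3 days, and 81 to 151 miRNAs were detected per array. miR-122, the marker of hepatocytes, was detected on all 63 arrays with a log2 brightness of 14.21 to 14.70. The columns of 15 rats in the authors' value table followed arrays other than their own, across 71 miRNAs. The table's DES and DHEA columns followed each other's arrays, its MC1 columns followed the arrays labelled MC5, its MC5 columns those labelled MC2, and its MC2 columns those labelled MC1. Which assignment is right was not settled, so for DES and DHEA the differences of miR-221 are given both ways, and the other values follow the labels unless the table's assignment is named.

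Each miRNA was read by 2 probes and 20 spots per array. miR-221 was detected on 42 of 63 arrays, by the scanner software's own mark, and miR-222 on 0 of 63. A stricter mark, well above background, was given to miR-221 on 16 arrays and to miR-222 on 0. Of 1260 spots of each miRNA over all arrays, 201 spots of miR-221 and 0 of miR-222 carried it. miR-221 thus lay near the limit of the array, and miR-222 was not well above background in any rat.

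The background-subtracted signal of miR-221 was above 0 on all 63 arrays, with a lowest value of 3.92 intensity units, a median of 15.7 and a highest of 48.4. That of miR-222 ran from -5.10 to 1.26 units with a median of -1.67, and it was above 0 on 5 arrays. The highest miR-221 signals were those of the 3 Wy rats, at 48.4, 34.2 and 30.7 units. In the 3 DHEA rats miR-221 had 8.11, 5.17 and 3.92 units, in the 3 CPA rats 4.14, 7.80 and 7.60 units, and in the 3 PBO rats 9.30, 6.69 and 5.63 units. On none of the arrays of DHEA, CPA, PBO or CO4 was miR-221 detected, whereas it was detected in 3 of 3 rats of Wy, MPy, AA, CIDB, CFX, Nif, ETH, Mcarb, MC2 and MC5. These signals are not scaled between arrays, and the share of arrays with miR-221 detected was 16 of 30 on scan day 1, 21 of 28 on day 2 and 5 of 5 on day 3.

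**Figure D1:**
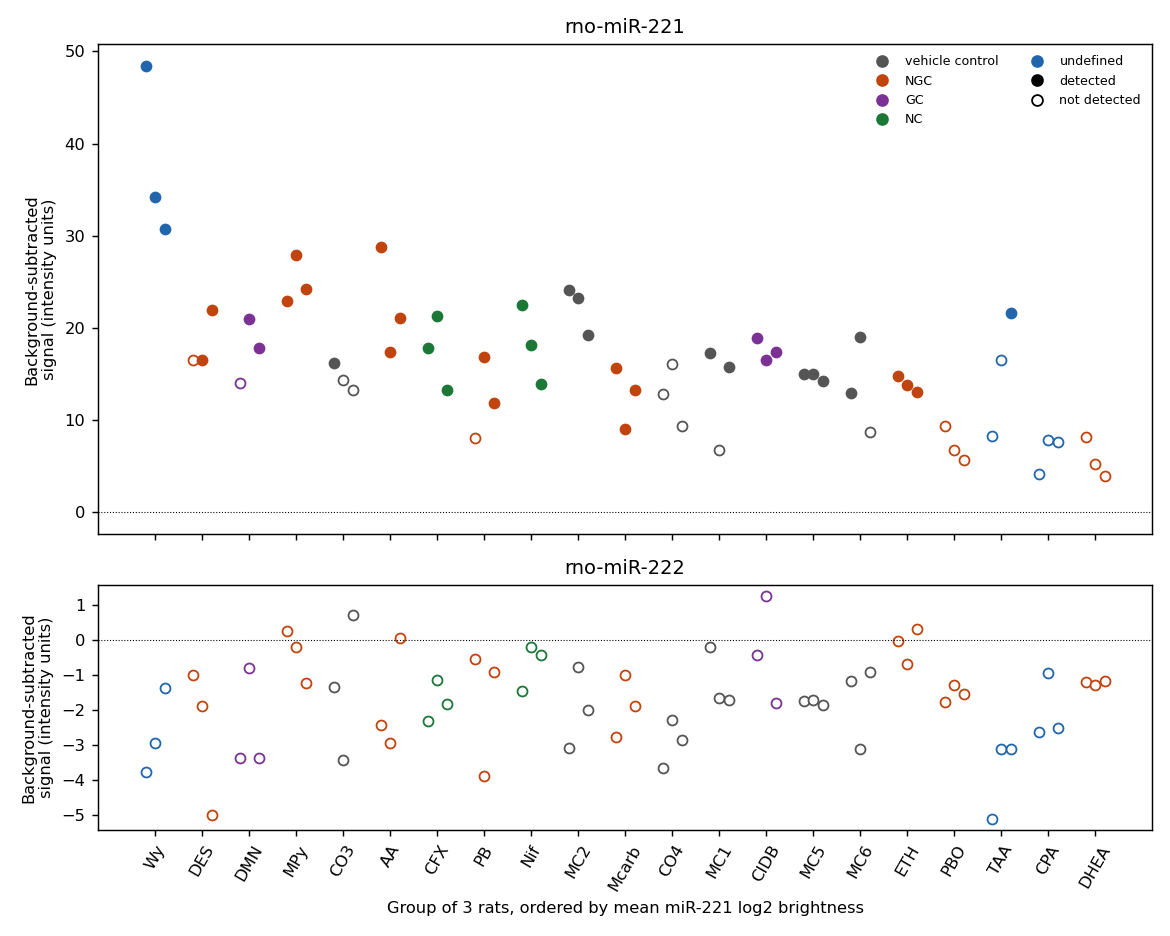
Background-subtracted signal (intensity units, not scaled between arrays) of miR-221 (top) and miR-222 (bottom), 1 point per rat, with 3 rats in each of 21 groups; colors give the class and filled points the arrays on which the miRNA was detected. The 3 Wy rats lie highest for miR-221, at 30.7 to 48.4 units, and miR-222 stays between -5.10 and 1.26 units with no filled point.

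For comparisons the mean brightness of the spots was quantile normalized and taken to log2 without subtracting the background. On this scale the background is part of every value, so differences of a dim miRNA are small numbers. They do not give the size of a change in the miRNA itself. Their sign could also differ from that of the background-subtracted means, which are not scaled between arrays. For example, TAA had -0.056 on the log2 scale, with 15.5 units against 13.2 in MC1. CIDB had -0.023, with 17.6 units against 14.6 in CO3. miR-221 group means ran from 7.46 in DHEA to 7.65 in Wy, and the SD within a group averaged 0.021. The 6 vehicle groups had means between 7.53 and 7.56, with single control rats from 7.49 to 7.57.

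Wy stood first in the order of miR-221 levels, followed by DES, DMN, MPy, CO3, AA, CFX, PB, Nif, MC2, Mcarb, CO4, MC1, CIDB, MC5, MC6, ETH, PBO, TAA, CPA and DHEA. Of 20 pairs of neighbours in this order, the ranges of 19 overlapped. The exception was ETH, with rats from 7.52 to 7.54, over PBO, with rats from 7.48 to 7.50. The 4 lowest groups, PBO, TAA, CPA and DHEA, thus lay apart from the next higher group, and their rats reached from 7.45 to 7.50. They did not lie apart from all other rats, since an MC6 vehicle rat was at 7.49. Under the value table's assignment, the names DES and DHEA change places in this order, and MC1, MC2 and MC5 exchange theirs.

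**Figure D2:**
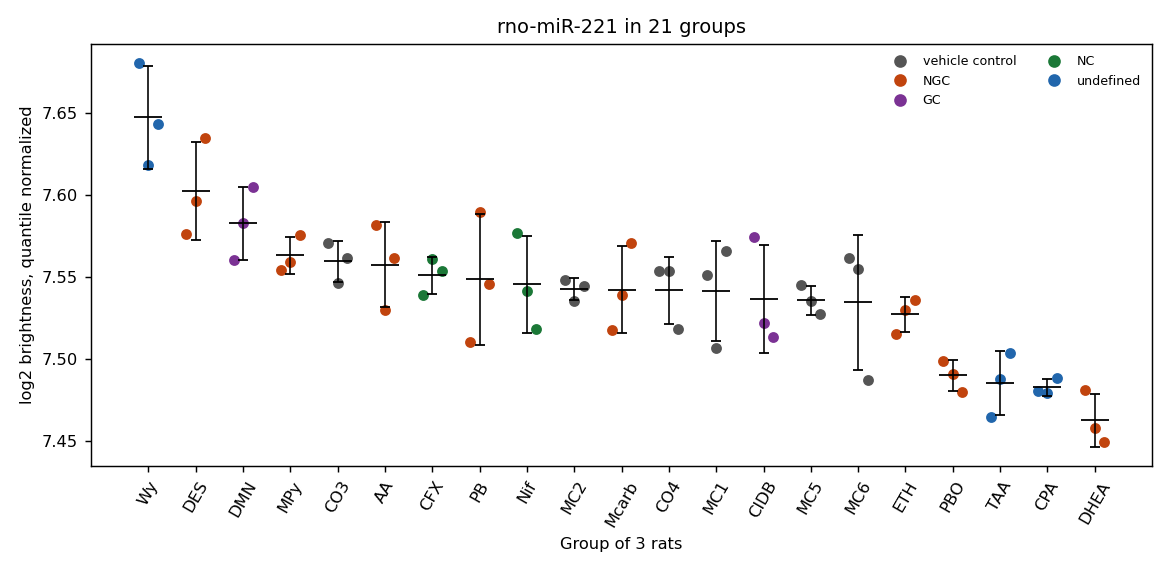
Quantile-normalized log2 brightness of miR-221 in each of 21 groups, ordered by mean; points are the 3 rats of a group, horizontal bars their mean and vertical bars the SD. Wy has the highest mean (7.65) and DHEA the lowest (7.46), and the 6 vehicle groups sit between 7.53 and 7.56.

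miR-221 passed an adjusted p under 0.05 in limma (called, below) in 4 of 15 comparisons with the control set. It was higher in Wy and in DES and lower in DHEA and in TAA. The SE of each of these log2 differences was 0.019 and each group had 3 rats. Beside it stands how often the 162 tested miRNAs were called in either direction, which was 25.9% in Wy, 37% in DES, 18.5% in DHEA and 21.6% in TAA. Calls were thus common among the miRNAs in these comparisons.

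Wy-14643 is an agonist of PPARα, a nuclear receptor that drives peroxisome proliferation in rat liver. miR-221 had a log2 brightness of 7.68, 7.62 and 7.64 in the Wy rats and 7.55, 7.51 and 7.57 in the MC1 rats. All Wy rats lay above all control rats, and 13% of the tested miRNAs did so in the same direction. The log2 difference was 0.11 (adjusted p = 6.8e-05 in limma), which is 1.08-fold on a brightness that includes the background, and 11.7% of the tested miRNAs were called higher. miR-221 was well above background in 2 of 3 Wy rats and 1 of 3 MC1 rats. In background-subtracted units the Wy rats averaged 37.8 ± 9.36 (SD, n = 3) and the MC1 rats 13.2 ± 5.71. After scaling of these signals by the 75th percentile over the miRNAs detected on all arrays, the log2 difference was 1.32 (adjusted p = 0.000157 in limma).

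All 3 Wy arrays were scanned on day 1, and the MC1 arrays on days 2 and 3. Against the 3 methylcellulose rats scanned on day 1 (MC6), the difference of miR-221 in Wy was 0.11 (adjusted p = 0.0016 in limma). The Wy arrays lay on slide 4, with arrays of TAA and AA and no vehicle array, and the MC6 arrays lay on slide 2. No control rat thus shared the slide of Wy, so slide and compound cannot be fully separated. With slide as a fixed block the difference was 0.097 (adjusted p = 0.391 in limma). Under the value table's assignment it was 0.11 (adjusted p = 4e-05), and both probes for miR-221 were higher in Wy, by 0.084 and 0.13.

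DES is a synthetic estrogen. In the arrays labelled DES miR-221 was at 7.58, 7.60 and 7.64, and in MC5 at 7.55, 7.54 and 7.53. All DES rats lay above all control rats, as 27.2% of the tested miRNAs did. The log2 difference was 0.067 (adjusted p = 0.0069 in limma), and 21% of the tested miRNAs were called higher. No fold is given, since miR-221 was well above background in none of the 3 rats of either group. It was detected in 2 of 3 DES rats and in 3 of 3 MC5 rats. The probes differed: probe 1 gave a difference of 0.0047 with overlapping groups, and probe 2 gave 0.13 with groups that did not overlap. The DES arrays were scanned on day 1 and the MC5 arrays on day 2, and against the MC6 rats of day 1 the difference was 0.068 (adjusted p = 0.055 in limma). On slide 3, which held the DES arrays, the only vehicle rats were those of CO3. Without DES replicate 3 the difference was 0.051 (adjusted p = 0.074). Under the value table's assignment the sign turned, to -0.080 (adjusted p = 0.002).

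DHEA is an adrenal steroid that also acts as a peroxisome proliferator in rat liver. In the arrays labelled DHEA miR-221 was at 7.48, 7.46 and 7.45, below all MC1 rats, as 16% of the tested miRNAs were. The log2 difference was -0.079 (adjusted p = 0.002 in limma), and 8.64% of the tested miRNAs were called lower. miR-221 was well above background in none of the DHEA rats and in 1 of 3 MC1 rats, so the fold is a bound. With the arrays as labelled, the measured miR-221 brightness was at least 1.05-fold lower in DHEA. This bound uses the mean of all 3 MC1 rats, including those not well above background, and leaves out the error between rats. Against 8 methylcellulose rats scanned on day 2, from MC1, MC2 and MC5, the difference was -0.076 (adjusted p = 0.000116 in limma). Probe 1 gave -0.045 and probe 2 gave -0.11. Under the value table's assignment the difference of DHEA was 0.067 (adjusted p = 0.0069), so that miR-221 was then higher in DHEA and lower in DES. With slide as a fixed block no compound was called, and the adjusted p of DHEA was 0.470.

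TAA is a hepatotoxic agent that causes liver necrosis and fibrosis. miR-221 was at 7.46, 7.49 and 7.50 in TAA, below all MC1 rats, as 16% of the tested miRNAs were. The log2 difference was -0.056 (adjusted p = 0.032 in limma), and 11.7% of the tested miRNAs were called lower. In background-subtracted units before scaling the groups overlapped, with 8.28, 16.6 and 21.6 units in TAA and 17.3, 6.71 and 15.7 in MC1, and the TAA mean was the higher one. miR-221 was well above background in no TAA rat, and no fold is given. The TAA arrays lay on slide 4, which held no vehicle array, and were scanned on day 1. Against MC6 on that day the difference was -0.049 (adjusted p = 0.144 in limma). Under the value table's assignment, which changes the MC1 arrays, it was -0.051 (adjusted p = 0.105). The call was lost without MC1 replicate 4 (adjusted p = 0.111), MC1 replicate 6 (0.141), TAA replicate 1 (0.145) or TAA replicate 2 (0.069), each left out alone in limma.

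CPA, a synthetic progestin and antiandrogen, and PBO, an inhibitor of cytochrome P450 enzymes, had low miR-221 without being called. In CPA miR-221 was at 7.48, 7.48 and 7.49 and in CO4 at 7.55, 7.55 and 7.52, and 11.1% of the tested miRNAs were likewise lower in every CPA rat. The log2 difference was -0.059 (adjusted p = 0.061 in limma), where 5.56% of the tested miRNAs were called, and CPA and CO4 lay on 1 slide. Without CO4 replicate 3 the adjusted p was 0.045. In PBO miR-221 was at 7.50, 7.49 and 7.48 and in MC5 at 7.55, 7.54 and 7.53, with 21% of the tested miRNAs lower in every PBO rat. The log2 difference was -0.046 (adjusted p = 0.130 in limma), where 8.64% of the tested miRNAs were called. CPA and CO4 were all scanned on day 1, and PBO and MC5 all on day 2. The comparison within scan day therefore did not change the day here but added control rats of other sets. With 6 corn oil rats, from CO3 (dosed for 7 days) and CO4, CPA had a difference of -0.068 (adjusted p = 0.035 in limma). PBO had -0.049 against 8 methylcellulose rats from MC1, MC2 and MC5 (adjusted p = 0.0085 in limma). miR-221 was well above background in no rat of CPA, CO4, PBO or MC5, so no fold is given.

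In the other 9 compounds the log2 difference of miR-221 lay between -0.023 in CIDB and 0.023 in DMN, with adjusted p values in limma of 0.414 and above. On the log2 scale the ranges of treated and control rats overlapped in all 9, and the 95% confidence intervals of these differences reached from -0.062 to 0.062. In background-subtracted units, not scaled between arrays, all rats of AA, CIDB and MPy lay above all their control rats. The means were 22.4 units in AA and 25.0 in MPy against 13.2 in MC1, and 17.6 in CIDB against 14.6 in CO3. How many other miRNAs did so in these units is not given here. The share of tested miRNAs called was 13.6% in AA, 0% in CFX, 20.4% in CIDB, 23.5% in DMN, 16% in ETH, 18.5% in MPy, 1.85% in Mcarb, 0% in Nif and 3.09% in PB. miR-221 was thus not called in CIDB, DMN, MPy and ETH, where 33, 38, 30 and 26 of 162 miRNAs were called. With background-subtracted signals scaled over the miRNAs detected on all arrays, miR-221 was called in MPy as well, with a log2 difference of 0.84 (adjusted p = 0.0081), and its 3 rats had 22.9, 28.0 and 24.2 units before scaling.

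**Figure D3:**
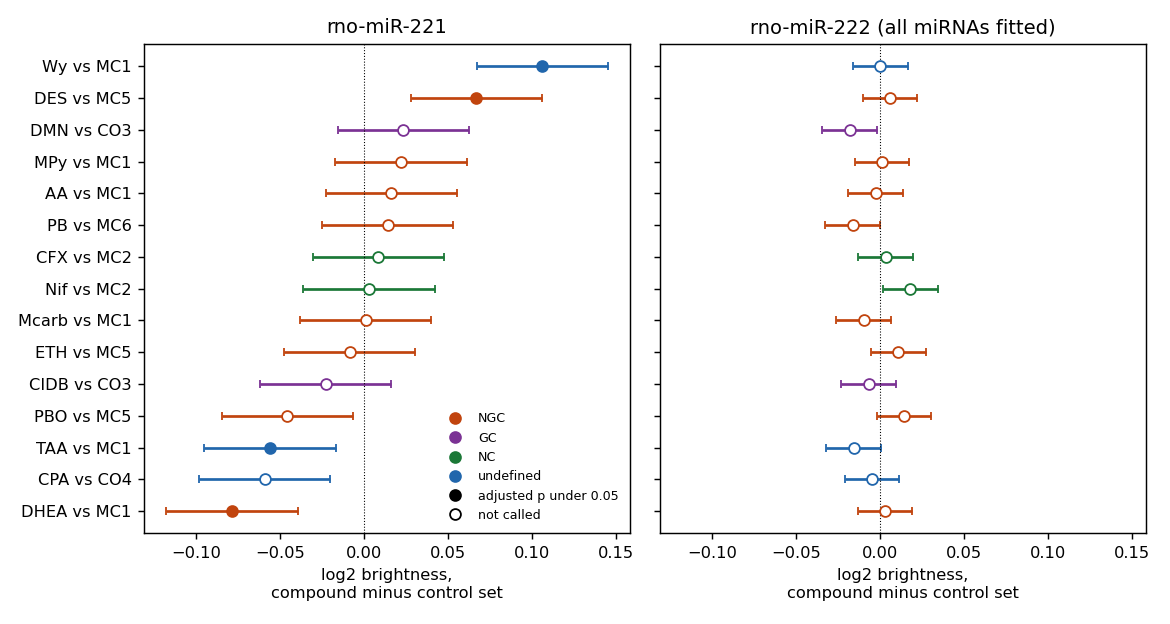
Log2 brightness of miR-221 (left) and miR-222 (right) as compound minus control set for 15 compounds with 3 rats per group; bars are 95% confidence intervals of limma and filled points have an adjusted p under 0.05. miR-221 ranges from -0.079 (DHEA) to 0.11 (Wy) with 4 filled points, and miR-222 stays between -0.018 and 0.018 with none.

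miR-222 was not among the 162 miRNAs detected on at least 1 array and entered a fit only when all 350 were kept. In that fit its log2 differences lay between -0.018 in DMN and 0.018 in Nif, and it was called in 0 of 15 compounds by limma, with a lowest adjusted p of 0.179. Over 15 compounds together, 6.5% of all tests in this fit were calls at an adjusted p under 0.05. At an unadjusted p under 0.05 in limma miR-222 passed in 3 compounds (DMN, Nif and PB), and the share of all miRNAs at that looser threshold is not given here. The log2 brightness of miR-222 ran from 7.36 to 7.43 over all rats, its group means from 7.38 in TAA to 7.41 in CO3, and the ranges of all 20 neighbouring groups overlapped. A level of miR-222 or a change in it was therefore not detectable on these arrays, which does not show that it is absent. miR-222 is also missing from the authors' value table of 135 miRNAs.

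The change of miR-221 was also set against that of miR-222 on the same arrays, as the log2 difference of both brightness values in each rat. The treated and control rats did not overlap in this measure in 6 of 15 compounds, where compound minus control was 0.11 in Wy, 0.061 in DES, 0.041 in DMN, -0.082 in DHEA, -0.060 in PBO and -0.054 in CPA. Set against miR-222 in the same way over the 15 compounds together, the 162 tested miRNAs did not overlap in 30.9% of cases. The two-sided exact permutation p was 0.1 in each of these 6, the smallest that 3 rats against 3 allow. The count was 8 under the value table's assignment, with -0.093 in DES and 0.061 in DHEA, and TAA (-0.036) and ETH (-0.034) no longer overlapped their controls. In TAA, with the arrays as labelled, the difference was -0.040 (two-sided exact permutation p = 0.2). Because miR-222 lay at the background in every rat, this measure follows miR-221 on the array and does not say that miR-222 stayed the same.

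The classes were compared over the mean log2 difference of each compound. miR-221 averaged -0.0017 over 8 NGC compounds, with a range from -0.079 in DHEA to 0.067 in DES. It was 0.000108 over the GC compounds, with -0.023 in CIDB and 0.023 in DMN, and 0.0056 over the NC compounds, with 0.0084 in CFX and 0.0029 in Nif. NGC compounds thus spread to both sides of the GC and NC compounds, and under the value table's assignment the ends of the range are -0.080 in DES and 0.067 in DHEA. The two-sided exact permutation p over compounds was 0.978 for NGC minus GC, 0.822 for NGC minus NC and 0.833 for both carcinogen classes minus NC. For miR-222 these exact permutation p values were 0.133, 0.267 and 0.167. limma called 0% of the 162 miRNAs in each of these 3 contrasts, and 19, 11 and 9 of them had an unadjusted p under 0.05. With 2 compounds in GC and in NC, the smallest p that the permutations allow was 0.022 for the first pair of contrasts and 0.015 for the last.

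miR-221 did not separate the vehicle groups. Over the 7 pairs of sets with the same vehicle its log2 difference lay between -0.0081 and 0.018, called in 0 pairs by limma with 0 at an unadjusted p under 0.05. The background was 20.4% of tested miRNAs called for MC6 minus MC1, 6.79% for MC6 minus MC2, 9.26% for MC6 minus MC5, and 0% for MC1 minus MC2, MC1 minus MC5, MC2 minus MC5 and CO3 minus CO4. The MC6 rats, scanned on day 1, thus differed from the other methylcellulose rats in other miRNAs, while for miR-221 the log2 differences were -0.0068, -0.0081 and -0.0013.

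**Figure D4:**
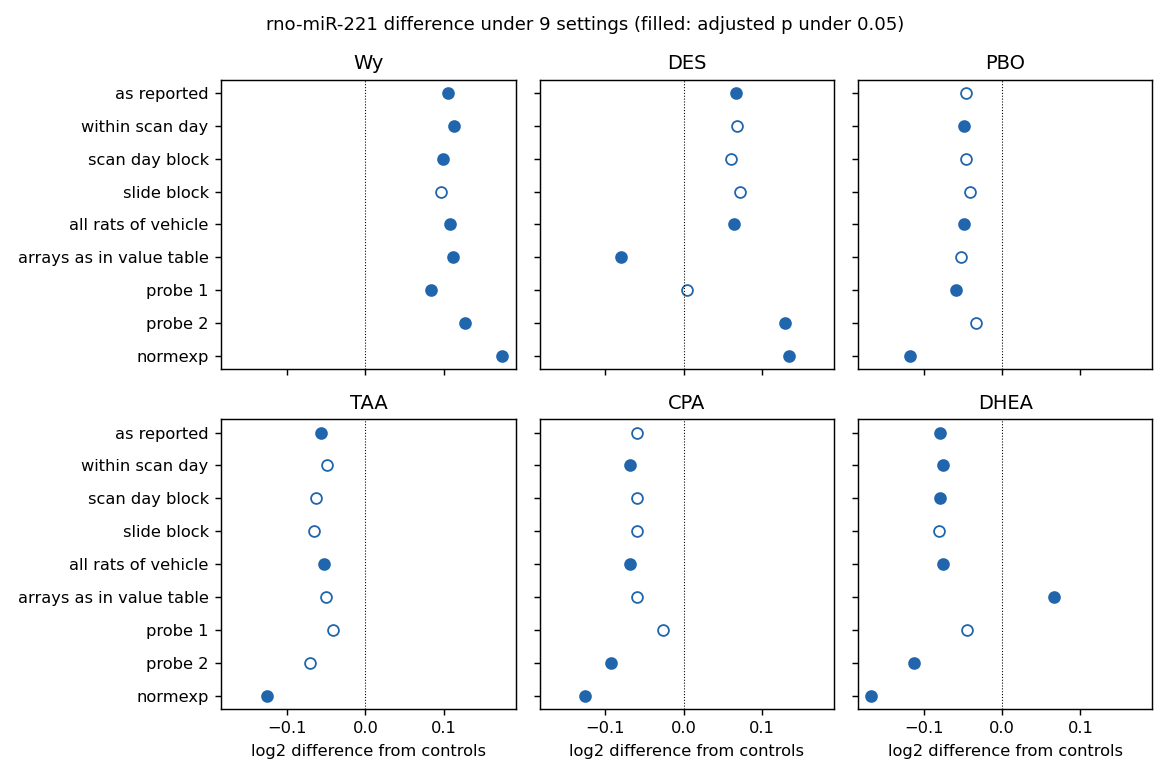
Log2 difference of miR-221 from its controls in 6 compounds under 9 ways of processing, 1 point each; filled points have an adjusted p under 0.05 in limma. Wy is positive under each of them (0.084 to 0.17) and lies open only with slide as a block, while DES and DHEA change sign under the value table's assignment.

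The miRNAs with the pattern most like miR-221 were sought among the 71 detected on all arrays, by Pearson's r over the 21 group means. They were rno-let-7b (r = 0.754), rno-miR-107 (r = 0.592) and rno-let-7c (r = 0.574), where the median over all 71 was -0.024. Spearman's rho was 0.600, 0.388 and 0.356. Without Wy and DHEA, the groups farthest from the median of miR-221, r was 0.563, 0.355 and 0.455. These group means share arrays and normalization, so they are a description. let-7b was called in the same direction as miR-221 in Wy (0.26), DES (0.28) and DHEA (-0.21) and not in TAA (-0.089, adjusted p = 0.347 in limma). miR-107 was higher in Wy by 0.81 and in DES by 0.89, and was -0.0078 in DHEA (adjusted p = 0.914). let-7c was higher in DES by 0.24, lower in DHEA by 0.32 (log2 difference -0.32), and 0.072 in Wy (adjusted p = 0.417). By the value table's assignment, let-7b was -0.29 in DES and 0.28 in DHEA, let-7c -0.35 and 0.24, and miR-107 -0.0073 and 0.89. For miR-222, at background throughout, the highest r were those of miR-199a-3p (0.650), miR-322 (0.553) and miR-29a (0.490).

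Other miRNAs known to act on the inhibitors of cyclin-dependent kinases were taken from a list of 9, of which 8 are on the array under the listed name and 6 were tested. The listed miR-17-5p is on the array as rno-miR-17, which was tested but left out of the counts and medians below. miR-24 and miR-181a bear on p27, miR-25 on p57, and miR-20a, miR-93 and miR-106b on p21. miR-196a and miR-92b were detected on no array. Over 15 compounds these 6 gave 21 calls that were higher and 3 that were lower out of 90, where all tested miRNAs gave 7.57% higher and 6.71% lower. These calls are not independent, since compounds with the same control set share its rats. For example, miR-93 was called higher in AA, DHEA, MPy, Mcarb and TAA, all against the same MC1 rats. In Wy 3 of the 6 were higher and 1 lower, with a list median of 0.090 against -0.0046 over all tested miRNAs. There miR-24 fell by 0.28, while miR-106b was higher by 0.13 and miR-25 by 0.092. In DES 4 were higher and 1 lower, with a median of 0.088 against -0.0010, and miR-20a was higher by 0.32, miR-106b by 0.15, and miR-24 fell by 0.23.

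In DHEA, where miR-221 was lower, 2 of these 6 were called and both were higher, miR-20a by 0.28 and miR-93 by 0.054, with a list median of 0.054 against -0.0042. In TAA miR-93 was higher by 0.050, with a median of 0.058 against -0.0059. In CPA and PBO none of the 6 was called, and the medians were 0.041 against 0.0034 and -0.018 against -0.0085. With DES and DHEA as labelled, miR-20a was thus called higher in DES, where miR-221 was higher, and in DHEA, where it was lower. In the value table's assignment 1 of the 6 was called in DES, miR-20a (0.23), and DHEA had 4 higher and 1 lower, with miR-20a at 0.32, miR-106b at 0.15 and miR-24 at -0.23. In TAA 0 of the 6 were then called, with miR-93 at 0.018 (adjusted p = 0.545 in limma). Wy then had 2 higher and 1 lower, and PBO had 1 lower, miR-181a (-0.060).

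Of 7 miRNAs of a growth list, all on the array, 6 were tested, and miR-224 was detected on no array. miR-21, which is raised in many tumors, fell by 0.22 in DES and by 0.27 in DHEA, while it was higher by 0.70 in CIDB and 0.30 in DMN, in both of which miR-221 was not called. miR-19a, of the miR-17-92 cluster, was higher by 0.34 in TAA and by 0.16 in DES. miR-18a was higher by 0.044 in TAA and 0.037 in DHEA, and it was detected on 9 arrays. miR-19b fell by 0.28 in CPA and by 0.36 in PBO. No growth miRNA was called in Wy, and the list median there was 0.014 against -0.0046. Over 15 compounds the list gave 12 higher and 4 lower calls out of 90, where all tested miRNAs gave 7.57% higher and 6.71% lower. These calls share control rats as well. With arrays assigned as in the value table, miR-19a was 0.039 in DES (adjusted p = 0.715 in limma) and was called in DHEA (0.16). miR-18a was then called in DES (0.029) and was 0.0053 in DHEA (adjusted p = 0.688). miR-21 was -0.21 in DES (adjusted p = 0.085) and -0.22 in DHEA (adjusted p = 0.036). In PBO 3 of the growth miRNAs were then called lower, miR-19a, miR-19b and miR-92a.

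Markers of liver cell types moved in some of the comparisons in which miR-221 did, and their part in the result was not tested. Their summed level is given in background-subtracted units, scaled by the 75th percentile. Beside the counts of called markers stands the share of all tested miRNAs called in either direction. It was 25.9% in Wy, 37% in DES, 18.5% in DHEA, 21.6% in TAA, 5.56% in CPA and 8.64% in PBO. Of 2 endothelial markers, miR-126 and miR-126*, none was called in Wy, and the sum was 369 to 474 in Wy and 410 to 417 in MC1. In DES 1 of the 2 fell, miR-126* by 0.087, with sums of 506 to 549 against 478 to 485. In DHEA and TAA neither was called, and the sums of 487 to 546 and 431 to 528 lay above the 410 to 417 of MC1. The other methylcellulose sets lay above MC1 as well, at 437 to 500 in MC2, 478 to 485 in MC5 and 517 to 635 in MC6. Under the value table's assignment the control sum of DHEA and TAA was 478 to 485. TAA then overlapped it, and DHEA, at 506 to 549, lay above it. In PBO the endothelial sum was 391 to 450 and in MC5 478 to 485, and in CPA it was 512 to 651 against 494 to 528 in CO4, with 0 of 2 called in both.

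Of 4 tested stellate and smooth muscle markers miR-143 fell by 0.22 in Wy and by 0.19 in TAA. Their sum reached at most 273 in Wy, below the 276 to 347 of MC1, and it was 316 to 357 in TAA. In DES 0 of 4 were called and the sum was 210 to 234 against 267 to 325. In DHEA 0 of 4 were called, with 272 to 307. miR-145 was detected in no rat. None of the 4 was called in Wy, TAA, DES or DHEA under the value table's assignment.

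Of 5 tested leukocyte markers 2 fell in DES, miR-142-3p by 0.52 and miR-142-5p by 0.076, and the sum was 216 to 296 in DES and 395 to 455 in MC5. None of the 5 was called in Wy, DHEA, TAA, CPA or PBO. The leukocyte sum was 366 to 528 in Wy, 304 to 538 in DHEA, 478 to 609 in TAA and 389 to 419 in MC1, and it was 218 to 238 in CPA against 261 to 323 in CO4. In PBO 3 of 5 markers of biliary epithelium were higher, miR-200b by 0.69, miR-200a by 0.31 and miR-429 by 0.19, with a sum of 203 to 366 against 98.3 to 115, and miR-429 was higher by 0.075 in DES. Of 3 hepatocyte markers (miR-122, miR-192 and miR-194) 1 was called in DES, in DHEA and in PBO, each time miR-192, which was higher by 0.26 in DES and fell by 0.36 in DHEA and by 0.24 in PBO. The list medians there were -0.053, -0.14 and -0.14, so in DES the list leaned the other way from miR-192. The hepatocyte sum was 22742 to 24245 in DES and 18628 to 26701 in PBO, both below the 30766 to 31872 of MC5. In Wy, with 0 of 3 called, it was 23130 to 23563, below the 25925 to 29025 of MC1, while DHEA (20514 to 27748), TAA (24964 to 28632) and CPA (27376 to 31262, against 30067 to 32583 in CO4) overlapped their controls. Vehicle sets were apart in this sum too, as MC1 lay below MC5 and below MC6 (30333 to 30747). If arrays are taken as in the value table, miR-192 was -0.47 in DES and 0.26 in DHEA, and the leukocyte calls of DES stood in DHEA. Neither of the erythroid markers miR-451 and miR-144 was called in any of the 15 compounds.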

How the data were processed

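The scanner files hold, per the file headers, intensities that Agilent Feature Extraction 10.7.3.1 (named in the submitters' processing notes) read from each spot, as mean brightness, local background and processed signal. The authors' value table holds normalized log2 values of 135 miRNAs on a scale and centring that are not stated. Here control spots and outlier spots were left out, mean brightness was quantile normalized without background correction, spots were averaged, and probes were joined by median polish on the log2 scale. The 162 miRNAs detected on at least 1 array were kept. limma 3.58.1 in R 4.3.3 was fitted over 63 arrays in 21 groups, with Benjamini-Hochberg adjustment, and exact permutations ran in Python 3.11.15. Groups and control sets follow the labels. A miRNA is well above background where 1 or more probes have the mark on most of their spots. The limma step was tested on simulated log2 values, with planted changes larger than the differences in log2 brightness reported for miR-221. Spot filtering, normalization and the joining of probes were not part of that simulation. The number of arrays limits the precision. Named are both miRNAs in all groups, for each the 3 most like it, and per list and compound up to 3 called miRNAs with the largest change. The members and lists were chosen with earlier results of these data known. Comparison with rats of the same vehicle and scan day was added after seeing the data.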

Additional observations from a re-analysis of the deposited data

How the results depend on the processing

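Wy kept a positive log2 difference of miR-221 under all alternatives, and it was no longer called with slide as a fixed block (0.097, adjusted p = 0.391 in limma) or when only the groups compared were fitted (0.11, adjusted p = 0.070). DES turned to -0.60 in the authors' value table and to -0.080 under that table's assignment, and DHEA turned to 0.48 and 0.067 under the same settings, as the assignment itself swaps their arrays. DES was not called with processed signals (0.44 when scaled over the miRNAs detected everywhere, 0.43 over all probes), with probe 1 alone (0.0047), slide as a fixed block (0.071), scan day as a block (0.060) or within scan day 1 (0.068). DHEA was not called with probe 1 alone (-0.045), slide as a fixed block (-0.080) or only the groups compared (-0.079). TAA was not called in the value table (-0.36), with processed signals scaled over miRNAs detected on all arrays (-0.29), with probe 1 (-0.041) or probe 2 (-0.071) alone, slide as a fixed (-0.065) or random (-0.057) block, scan day as a block (-0.063), only the groups compared (-0.056), the table's assignment (-0.051) or within scan day 1 (-0.049). CPA became called with processed signals (-0.91 and -1.09), normexp (-0.13), probe 2 alone (-0.093), all rats of the vehicle (-0.068) and within scan day 1 (-0.068). PBO became called in the value table (-0.46), with normexp (-0.12), probe 1 alone (-0.058), all rats of the vehicle (-0.049) and within scan day 2 (-0.049). For CPA and PBO the fit within scan day added control rats of other sets, since their own control sets already shared their day. The cause was not tested where none is named.

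miR-221 was called higher in 2 compounds. That became 1 with signals scaled over all probes, probe 1 alone, scan day as a block, only the groups compared and within scan day, and 0 with slide as a fixed block. It was called lower in 2 compounds, which became 4 with normexp and with all rats of the vehicle, 3 with processed signals scaled over all probes and within scan day, 1 with probe 1 alone, scan day as a block, slide as a random block and the table's assignment, and 0 with slide as a fixed block and with only the groups compared. Leaving out 1 rat at a time gave 0.089 to 0.12 for Wy, 0.051 to 0.080 for DES, -0.096 to -0.066 for DHEA, -0.073 to -0.044 for TAA, -0.071 to -0.053 for CPA and -0.050 to -0.041 for PBO, and 0 calls in the other 9 compounds. Of these 9, 1 (MPy) was called with signals scaled over miRNAs detected on all arrays. Signs of the class contrasts turned under that scaling (0.25 for carcinogens minus NC, 0.080 for NGC minus GC, 0.27 for NGC minus NC), and for NGC minus GC with slide as a block (0.042), none with an exact permutation p under 0.05. Replicate numbers are shared between PB and MC6 and between CPA and CO4, but rats with the same number did not deviate together (r from -0.26 to 0.045 across miRNAs). With the replicate block the difference was -0.059 in CPA (adjusted p = 0.051) and 0.014 in PB. The value table has no miR-222, so its change could not be set against miR-221 there. Signal over background limits miR-221, and miR-222 gave no level.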
